A study of Homo sapiens with 24 samples.

Results

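The collagen genes are the rows of the count files whose symbol has the form COL, a number, A and a number. The rule found 44 genes among 23106 symbols, and it used no measured value. Of the 44, 32 passed the count filter in at least 1 of 4 cancer cell lines, which is what expressed means here (edgeR's filterByExpr in the 6 libraries of a line). In structure 11 are fibrillar, 10 are fibril-associated, 6 are type IV chains of basement membrane networks, 5 are type VI chains of beaded filaments, 4 span the plasma membrane, 3 form short-chain networks, 2 are multiplexins, 1 is the anchoring fibril chain COL7A1 and 2 fit none of these.

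Collagens are proteins of the extracellular matrix in which chains wind into a triple helix, either as copies of the same chain or as a fixed combination of different chains. Newly made chains are hydroxylated on proline and lysine in the endoplasmic reticulum by enzymes that use molecular oxygen, and the helix does not hold at body temperature without hydroxyproline. Epithelial cells are best known for type IV collagen, the sheet of the basement membrane, and for types VII and XVII, which anchor them to it, whereas the fibrillar types I, III and V are made mainly by fibroblasts.

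Poly-A RNA was sequenced from A549 (lung cancer), HCT-116 (colorectal cancer), PC3 (prostate cancer) and T47D (breast cancer), established human carcinoma lines with no introduced allele or other agent. Each line was kept in 21% O2 (normoxia) or moved to 0.5% O2 for 16 hours (hypoxia), with 3 libraries in each of 8 groups and 24 in all. All were grown on plastic with serum, in F12K for A549 and PC3, in McCoy's medium for HCT-116 and in DMEM for T47D, so that line and tissue of origin cannot be told apart, nor medium from them, although A549 and PC3 shared a medium. The labels do not say whether replicates were separate cultures, and p-values then measure only the spread between these libraries, which may be technical. Each tissue is represented by 1 line, and in bulk RNA fewer cells of a type and less RNA per cell cannot be told apart.

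Library totals ran from 22698584 to 62850747 counts, of which the collagen genes held 0.0171% to 0.244%. CA9, NDRG1, VEGFA and ANKRD37, genes known to respond to hypoxia, summed to more CPM in every hypoxic library than in any normoxic library of the same line. The 4 epithelial markers were present in every line, and their summed level went from 1507–2514 to 4675–5491 CPM with hypoxia in HCT-116 and from 5055–9534 to 10423–17424 CPM in T47D. Most of that sum was KRT8 and KRT18, which rose without overlap in both lines, as did CDH1. EPCAM overlapped in both, at 263–347 and then 236–274 CPM in HCT-116 and 125–197 and then 145–214 CPM in T47D. None of the 4 lung markers reached 1 CPM in A549, KLK3 was at 0 in PC3, and of 4 colorectal markers CDX2 alone passed 1 CPM in HCT-116, whereas all 4 luminal breast markers did so in T47D. Of the 6 fibroblast markers, PDGFRA and PDGFRB stayed under 1 CPM in every library. THY1 and TWIST2 were found at 6.73 to 12.7 CPM in A549. With hypoxia ACTA2 went from 10.1–13.3 to 15.5–19.6 CPM in A549 and from 1.63–3.46 to 3.78–10.3 CPM in HCT-116, without overlap in either line. The summed fibroblast list, most of which was S100A4, went from 594–805 to 629–731 CPM in A549, from 194–478 to 113–162 CPM in HCT-116, from 4.44–7.91 to 8.93–20.6 CPM in PC3 and from 58.2–112 to 79.0–110 CPM in T47D. Endothelial markers summed to at most 3.82 CPM in any library and leukocyte markers to at most 3.76 CPM. What part any of these markers has in the collagen results was not tested.

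The start regions of some members are shown first, since the pairs that share a start region, and the members called in the same direction in 3 or more lines, carry much of what follows. COL4A1 and COL4A2, COL4A3 and COL4A4, and COL4A5 and COL4A6 are head-to-head pairs whose chains join in the same helix. Between their RefSeq start sites lie 127 bases for COL4A1 and COL4A2, 419 for COL4A3 and COL4A4, and 380 for COL4A5 and the nearer start of COL4A6. Windows of 300 bases, 250 before and 50 after a start site, came from RefSeq on GRCh38.p14, which matched 32 of the 44 genes. COL6A1, called in all 4 lines, had no entry. Capitals mark ACGTG or GCGTG on either strand (so CACGT and CACGC as printed), the core that hypoxia-inducible factors are known to bind. Where ACGTG lies within CACGTG it counts on both strands. The windows of COL4A1 and COL4A6 overlap those of their partners by 226 and 121 bases, hold no match, and are not printed.
COL4A2, chr13:110307034-110307333, plus strand: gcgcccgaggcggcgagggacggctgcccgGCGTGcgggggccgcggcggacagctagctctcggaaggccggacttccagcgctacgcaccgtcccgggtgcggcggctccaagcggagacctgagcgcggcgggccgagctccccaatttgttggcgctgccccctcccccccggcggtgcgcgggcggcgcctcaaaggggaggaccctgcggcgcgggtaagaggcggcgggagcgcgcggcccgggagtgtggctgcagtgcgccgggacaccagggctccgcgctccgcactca
COL4A3, chr2:227164374-227164673, plus strand: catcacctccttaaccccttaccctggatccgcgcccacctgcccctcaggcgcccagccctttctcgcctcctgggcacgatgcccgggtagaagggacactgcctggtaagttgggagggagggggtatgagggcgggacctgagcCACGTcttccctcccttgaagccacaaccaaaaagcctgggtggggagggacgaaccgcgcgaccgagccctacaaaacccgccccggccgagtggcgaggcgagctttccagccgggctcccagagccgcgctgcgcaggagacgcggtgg
COL4A4, chr2:227164156-227164455, minus strand: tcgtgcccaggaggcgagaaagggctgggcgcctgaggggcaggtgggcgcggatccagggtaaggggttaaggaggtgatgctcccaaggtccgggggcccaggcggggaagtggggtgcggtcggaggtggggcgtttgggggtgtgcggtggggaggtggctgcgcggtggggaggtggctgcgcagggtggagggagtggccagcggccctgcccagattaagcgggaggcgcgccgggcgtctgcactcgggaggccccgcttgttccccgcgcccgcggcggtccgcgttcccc
COL4A5, chrX:108439588-108439887, plus strand: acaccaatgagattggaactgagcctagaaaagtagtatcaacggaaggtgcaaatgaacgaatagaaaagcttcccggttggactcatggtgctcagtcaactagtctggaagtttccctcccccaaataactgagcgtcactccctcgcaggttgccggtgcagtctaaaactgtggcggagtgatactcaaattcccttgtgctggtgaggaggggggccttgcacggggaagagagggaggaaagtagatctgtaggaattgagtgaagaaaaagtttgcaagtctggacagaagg
COL12A1, chr6:75206004-75206303, minus strand: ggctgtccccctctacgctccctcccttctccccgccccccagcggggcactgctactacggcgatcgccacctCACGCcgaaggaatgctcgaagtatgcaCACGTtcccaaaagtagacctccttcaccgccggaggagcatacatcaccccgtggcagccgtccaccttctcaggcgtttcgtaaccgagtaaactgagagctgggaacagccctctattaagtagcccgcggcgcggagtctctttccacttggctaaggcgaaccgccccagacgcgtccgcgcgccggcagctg
COL18A1, upstream start, chr21:45404915-45405214, plus strand: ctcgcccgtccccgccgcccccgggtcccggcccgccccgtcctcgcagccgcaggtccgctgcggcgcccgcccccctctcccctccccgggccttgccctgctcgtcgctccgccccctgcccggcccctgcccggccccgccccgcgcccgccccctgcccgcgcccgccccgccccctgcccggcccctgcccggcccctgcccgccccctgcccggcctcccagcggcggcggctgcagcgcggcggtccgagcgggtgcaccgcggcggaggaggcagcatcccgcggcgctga
COL18A1, downstream start, chr21:45455272-45455571, plus strand: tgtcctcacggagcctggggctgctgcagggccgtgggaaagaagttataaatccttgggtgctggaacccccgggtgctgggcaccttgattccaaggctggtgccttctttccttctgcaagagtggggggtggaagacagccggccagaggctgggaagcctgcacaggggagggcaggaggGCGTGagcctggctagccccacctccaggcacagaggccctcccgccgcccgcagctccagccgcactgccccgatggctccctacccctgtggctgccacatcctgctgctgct

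COL12A1 held 2 matches, beginning 176 and 148 bases before its start. COL4A2 held 1 at 220 bases, COL4A3 held 1 at 102 bases, and the downstream start of COL18A1 held 1 at 65 bases before the start. The windows of COL4A4, COL4A5 and the upstream start of COL18A1 held none. Among all 35116 windows of this length in the table, 48.4% held at least 1 match, and 19 of the 44 windows of collagen genes did (43.2%). A match is a description of letters in the window and not a site of binding.

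The lines overlapped in part in the collagens that passed the count filter over their 6 libraries, hypoxic ones included. Of the 44 genes, 27 were tested in A549, 20 in HCT-116, 22 in PC3 and 19 in T47D, and 11 were tested in all 4 lines. Levels are CPM, the usual unit of counts scaled to a fixed library total, adjusted by TMM (trimmed mean of M values) across the 24 libraries so that lines can be compared, and are divided by kilobases of exon wherever different genes are compared. Fold changes come from a fit to the 6 libraries of a line with its own scaling and can differ a little from the ratio of the printed levels. In normoxia the 3 members with the most counts took 56.0% of collagen counts in A549 (COL5A2, COL18A1 and COL7A1). They took 56.7% in HCT-116 (COL6A1, COL18A1 and COL6A2), 73.4% in PC3 (COL6A2, COL6A1 and COL13A1) and 71.1% in T47D (COL12A1, COL1A1 and COL4A5).

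A549 stood out for some of the type V and type IV chains. COL4A1, COL4A2, COL4A4, COL4A6, COL5A1 and COL5A2 were above the next line in the test between lines. COL4A3, COL4A5 and COL5A3 were also highest in A549, but not above the next line in that test (adjusted p = 0.199, 0.327 and 0.628). COL5A2, a chain of the type V fibrils that lie inside type I fibrils, was at 288, 262 and 356 CPM in normoxic A549, which is 41.3 ± 6.66 CPM per kb (SD, n = 3). PC3 had 11.3 ± 2.38 CPM per kb, T47D 0.584 ± 0.204 and HCT-116 0.259 ± 0.0622, and each step in that order passed the test between lines (largest adjusted p = 0.000772). COL4A1 and COL4A2, the chains of the most widespread basement membrane helix, were at 5.05 ± 1.40 and 8.56 ± 3.09 CPM per kb in A549 and at 1.37 ± 0.285 and 3.18 ± 0.707 CPM per kb in PC3. In HCT-116 and T47D neither chain passed the filter, with at most 18 counts in any library. COL7A1, the chain of the fibrils that anchor the basement membrane to the tissue below, was at 136, 242 and 140 CPM in A549, against 9.10 ± 7.04 CPM in T47D, 5.11 ± 1.47 in HCT-116 and 4.20 ± 1.74 in PC3 (SD, n = 3). A549 was above T47D (adjusted p = 2.63e-06), and the other neighbours in the order did not pass the test (adjusted p = 0.137 and 0.634).

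PC3 stood out for type VI collagen. COL6A1 and COL6A2 were at 89.4 ± 12.8 and 96.2 ± 16.1 CPM per kb in PC3 (SD, n = 3), and they held 33.3% and 34.5% of normoxic collagen counts there. COL6A1 ranked in the order PC3, HCT-116, A549 and T47D, with 495 ± 71.0, 64.9 ± 2.67, 33.0 ± 9.92 and 1.5 ± 0.189 CPM, and each step passed the test (largest adjusted p = 0.000563). COL6A3, the longest of the 3 chains of the main type VI helix, was at 71.4, 78.2 and 62.7 CPM in PC3 and under 0.4 CPM in every normoxic library of the other lines. COL13A1, a collagen that spans the plasma membrane, was at 84.6 ± 10.96 CPM in PC3, 4.20 ± 0.836 in HCT-116, 0.596 ± 0.267 in A549 and 0.0295 ± 0.0382 in T47D, and each step passed (largest adjusted p = 8.26e-06).

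**Figure D1:**
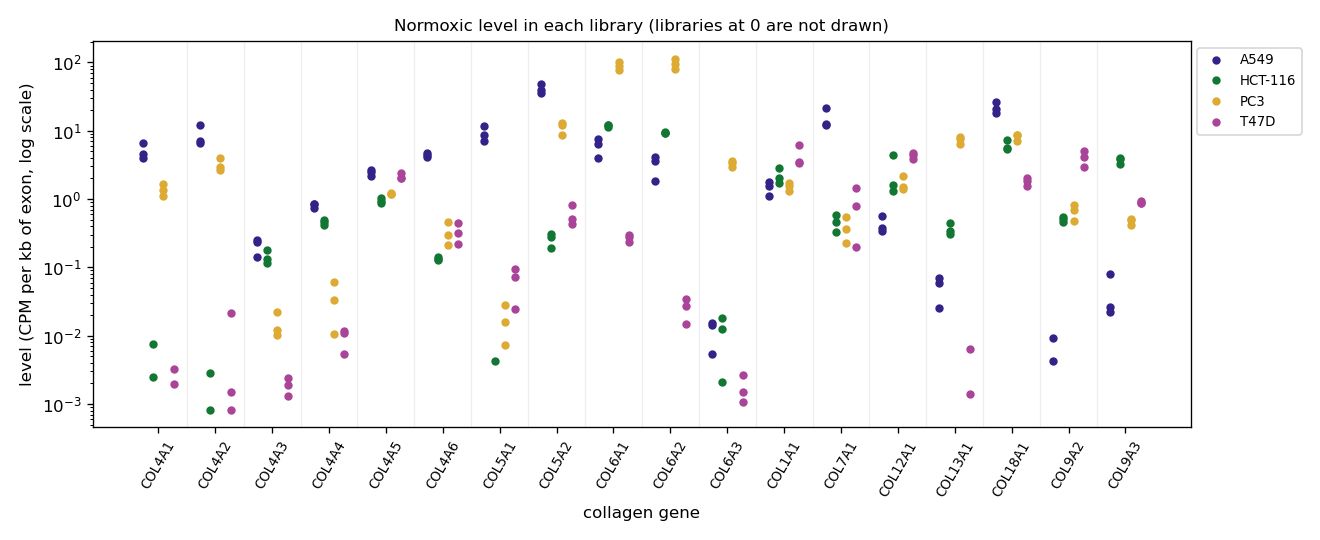
Normoxic level of 18 collagen genes in the 12 normoxic libraries, in CPM per kilobase of exon on a log axis, with 1 point a library coloured by line. The points of COL6A1 and COL6A2 in PC3 lie near 89.4 and 96.2 CPM per kb, while COL4A1 and COL4A2 in HCT-116 and T47D lie under 0.03.

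T47D and HCT-116 held less collagen RNA in all. T47D led for COL12A1, a long chain that sits on the surface of type I fibrils, with 82.6, 89.1 and 71.7 CPM in normoxia, and for COL1A1, the major chain of type I collagen, with 31.4, 54.9 and 30.2 CPM. COL1A2, its partner in the type I helix, was at 0.0464, 0.392 and 0.350 CPM in the same libraries and passed the filter in no other line, so that per kilobase COL1A1 exceeded COL1A2 by 168 and 103 times in normoxia replicates 2 and 3 of T47D. In replicate 1 COL1A2 had 2 counts, under the 3 counts taken as the floor of a library. COL9A2 was also highest in T47D (4.03 ± 1.002 CPM per kb), and COL9A3, which joins it in the type IX helix, was highest in HCT-116 (3.70 ± 0.421 CPM per kb). Across the 4 lines, 30 of the 30 collagen genes tested differed in normoxic level (edgeR F test, adjusted p under 0.05), where 93.5% of all genes did. Of all genes, 64.9% differed between A549 and HCT-116, 60% between A549 and PC3, 66.6% between A549 and T47D, 65.6% between HCT-116 and PC3, 68.5% between HCT-116 and T47D and 67.8% between PC3 and T47D. A549 was highest for 18 of the 30 and above the next line for 14, PC3 for 7 and 7, T47D for 4 and 3, and HCT-116 for 1 and 1. How many of all genes each line led was not counted. These counts therefore have no background and do not show a trait of collagen genes.

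The summed level of the 44 genes was 1003, 1173 and 1385 CPM in normoxic A549 and 1892, 1997 and 1384 CPM in hypoxic A549. In HCT-116 it went from 345, 281 and 263 to 536, 645 and 596 CPM. In PC3 it went from 1499, 1697 and 1265 to 2408, 2479 and 2347 CPM, and in T47D from 190, 245 and 179 to 293, 368 and 180 CPM. The groups did not overlap in HCT-116 and PC3 and overlapped in A549 and T47D, where hypoxia replicate 3 lay among the normoxic libraries. No test was made on the sum, which a few genes dominate.

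**Figure D2:**
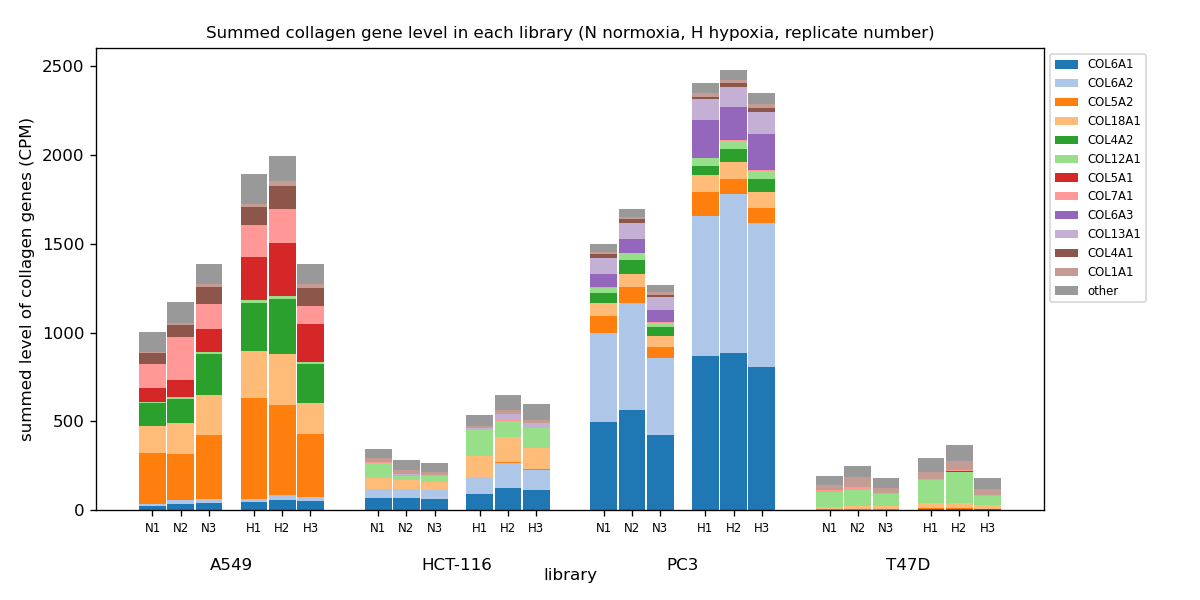
Summed level of the collagen genes in each of the 24 libraries in CPM, with bars stacked by gene for the 12 genes with most CPM over all libraries and grey for the rest. PC3 bars are mostly COL6A1 and COL6A2, and the tallest reaches 2479 CPM.

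The comparison of hypoxia with normoxia asked which members change at the RNA level when oxygen is low, and whether they are the same from line to line. A gene was called at an adjusted p under 0.05 (edgeR quasi-likelihood test, Benjamini-Hochberg over all genes tested in the line) and a fold over 1.2. In A549, 12 members were higher in hypoxia and 1 was lower of 27 tested, where 17.6% of all genes were called higher and 17.8% lower. In HCT-116, 7 were higher and 1 lower of 20, against 23.3% and 27% of all genes. In PC3, 13 were higher and 0 lower of 22, against 16.6% and 15.7%. In T47D, 2 were higher and 0 lower of 19, against 6.55% and 6.69%. Called in either direction were 35.5%, 50.3%, 32.3% and 13.2% of all genes in A549, HCT-116, PC3 and T47D. At an unadjusted p under 0.05, 0 members were lower in PC3 and in T47D, where 22.7% and 16.6% of all genes were, and DESeq2 called 0 lower in both lines. In either direction 15, 9, 13 and 6 members passed that limit in the 4 lines in this order, and 45.4%, 56.9%, 45.2% and 30.7% of all genes did. In HCT-116 and T47D these members are 45% and 31.6% of those tested, below or near the share of all genes. The median log2 fold change of the members tested was 0.48, 0.31, 0.40 and 0.55, and over all genes it was -0.01, -0.03, -0.01 and -0.01.

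In all, 20 members were called higher in at least 1 line, 2 were called lower (COL3A1 in A549 and COL7A1 in HCT-116), 10 of the 32 tested were never called, and 0 were called in opposite directions. COL6A1 was called higher in all 4 lines, and COL12A1, COL18A1 and COL4A4 in 3. With the replicate block and the GC and length correction, both described below, COL1A1 was called higher in A549 and lower in HCT-116. In that setting COL4A6 was called higher in T47D and lower in A549. The CPM of the hypoxic and normoxic libraries did not overlap for 12 of 27 members in A549, 11 of 20 in HCT-116, 13 of 22 in PC3 and 8 of 19 in T47D, where 47.9%, 60.4%, 50.6% and 32.3% of all genes did not. A member can pass the filter through the group where it is high, and then its difference is partly built in. This was so for COL15A1 and COL6A3 in A549, COL4A4 and COL5A1 in PC3, and COL26A1, COL2A1 and COL6A2 in T47D, which passed through the hypoxic libraries, and for COL3A1 in A549 and COL26A1 in HCT-116, which passed through the normoxic ones. Of the members called higher, 11 in A549, 7 in HCT-116, 11 in PC3 and 2 in T47D passed in each oxygen state on its own.

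**Figure D3:**
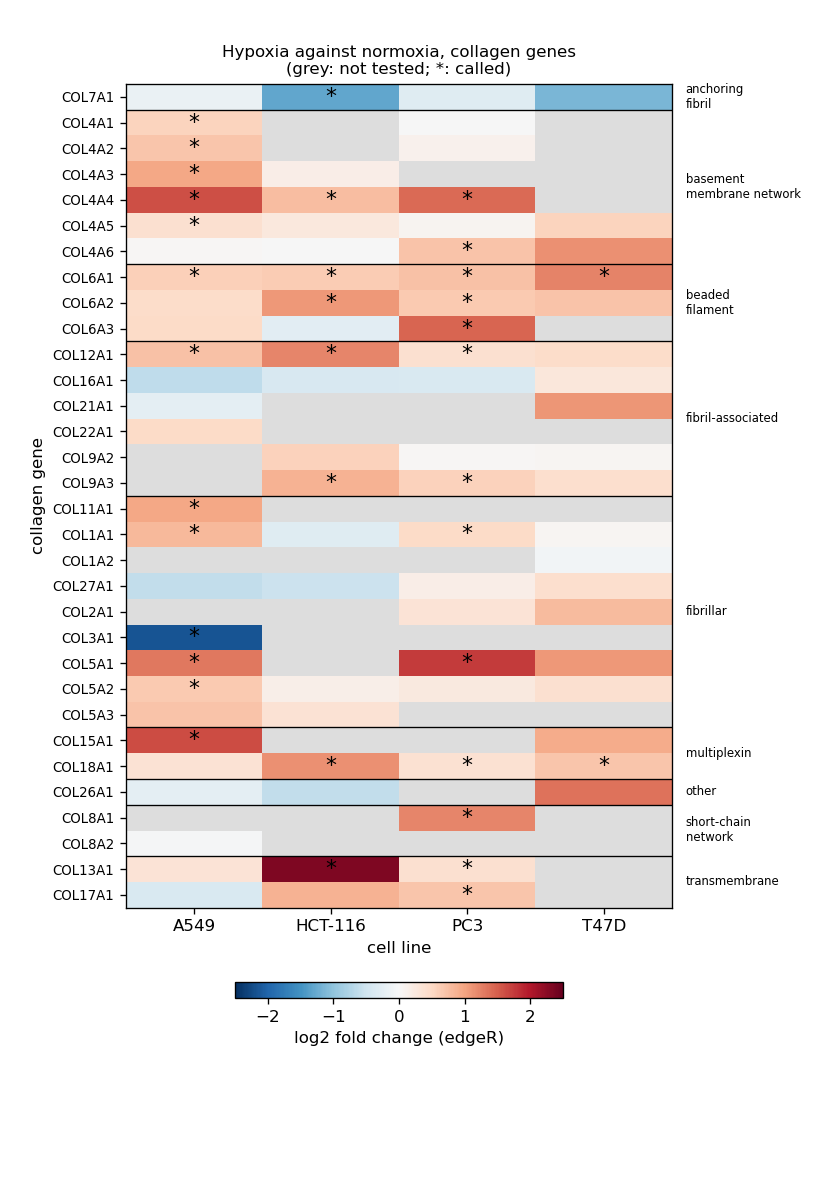
Log2 fold change of hypoxia against normoxia (edgeR, colour, red higher in hypoxia) for the 32 collagen genes tested in at least 1 line, in rows grouped by structure, with the 4 lines in columns. Stars mark calls, grey means not tested, and COL6A1 is the row with 4 stars.

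The hypoxia effect moved with the GC content and length of transcripts across all genes, and many of these calls did not hold once that was taken out. With genes split by GC into 4 bins of like size, the median log2 fold change went, from the lowest bin to the highest, from -0.22 to 0.18 in A549, from -0.60 to 0.40 in HCT-116, from -0.24 to 0.19 in PC3 and from -0.27 to 0.21 in T47D. Collagen transcripts are rich in GC and long, and in A549 14 of the 27 tested lay in the top bin for GC and 21 in the top bin for length. After a spline correction of each library for GC and length, the calls went from 12 higher and 1 lower to 4 and 5 in A549, from 7 and 1 to 2 and 4 in HCT-116, from 13 and 0 to 4 and 0 in PC3, and from 2 and 0 to 0 and 0 in T47D. Of all genes, 15%, 19.1%, 11.7% and 6.87% were then higher in A549, HCT-116, PC3 and T47D. Lower were 16.4%, 20.2%, 12.5% and 6.09% in the same order. The share of tested members called higher was thus near that of all genes in A549, below it in HCT-116 and T47D, and above it in PC3. The calls that held were COL12A1, COL3A1, COL4A4, COL5A1 and COL5A2 in A549, COL12A1, COL13A1 and COL7A1 in HCT-116, and COL6A1, COL6A2, COL6A3 and COL8A1 in PC3. The correction also called members that were not called without it, and all of these were lower in hypoxia: COL16A1, COL27A1, COL4A6 and COL7A1 in A549, and COL16A1, COL1A1 and COL27A1 in HCT-116. Such a correction removes any change shared by genes of like GC and length, whatever its source, and what part library preparation has in that trend was not tested.

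**Figure D4:**
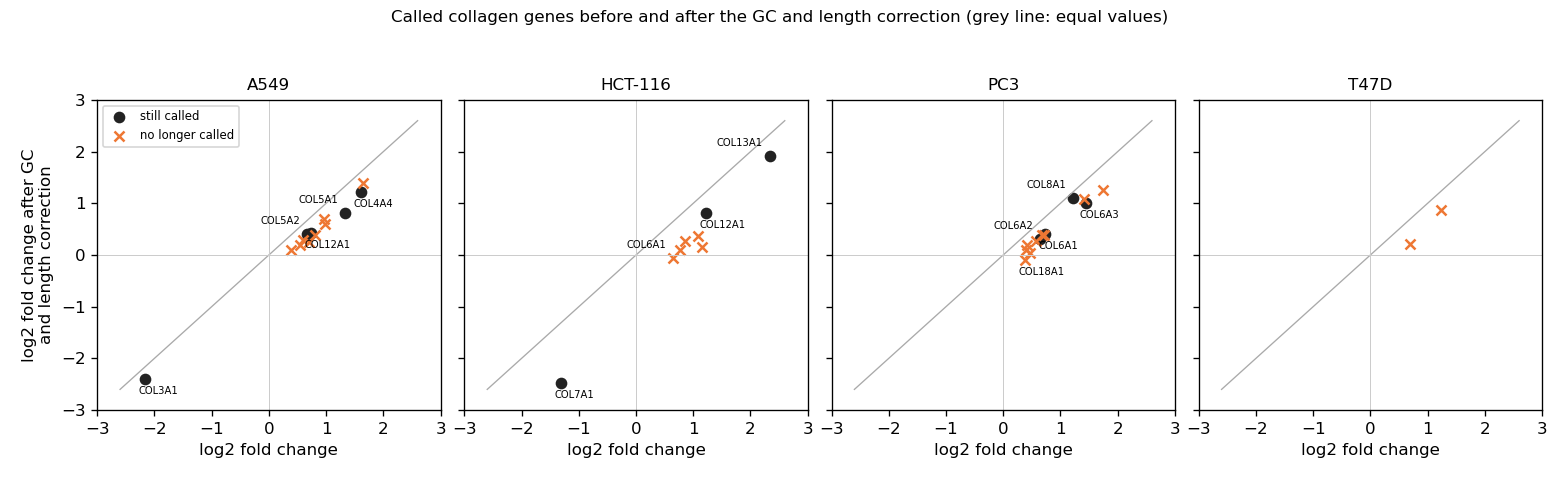
Log2 fold change of each called collagen gene without the GC and length correction (horizontal) and with it (vertical), in 1 panel a line. Black circles were still called after the correction and orange crosses were not. The points lie below the grey line of equal values, and COL6A1 in HCT-116 (-0.06) and COL18A1 in PC3 (-0.10) cross 0.

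At least 1 type VI chain was called higher in every line. COL6A1 (ENSG00000142156, GRCh37 chromosome 21, 47401684 to 47424964, plus strand, 35 exons) encodes the alpha 1 chain of the beaded filaments that link cells to the interstitial matrix. In PC3 it was at 494, 566 and 424 CPM in normoxia and 869, 885 and 806 CPM in hypoxia, 1.67-fold higher (log2 0.74, SE 0.11, adjusted p = 0.00226). In HCT-116 it was at 66.0, 66.8 and 61.9 CPM and then 92, 124 and 115 CPM, 1.56-fold higher (log2 0.64, SE 0.19, adjusted p = 0.0129). All hypoxic libraries lay above all normoxic ones in both lines. In A549 it was at 22.2, 35.2 and 41.7 CPM and then 44.4, 57.0 and 49.4 CPM, 1.52-fold higher (log2 0.60, SE 0.19, adjusted p = 0.0278). In T47D, where it was scarce, it was at 1.55, 1.66 and 1.29 CPM and then 3.74, 4.54 and 2.96 CPM, 2.35-fold higher (log2 1.23, SE 0.32, adjusted p = 0.0257). A difference between the 4 effects was not called (interaction adjusted p = 0.224), and with the correction for GC content and length described above it was at 0.0632. With that correction and the replicate block together it was called (adjusted p = 0.0092), and the corrected log2 values without the block were 0.87 in T47D, 0.41 in PC3, 0.29 in A549 and -0.06 in HCT-116.

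COL6A2 and COL6A3 joined COL6A1 in PC3. COL6A2, which lies near COL6A1 on chromosome 21 and encodes the alpha 2 chain, was at 505, 603 and 431 CPM in normoxic and 790, 894 and 812 CPM in hypoxic PC3, 1.57-fold higher (adjusted p = 0.0045). In HCT-116 it was at 50.01, 51.2 and 49.1 CPM and then 93.2, 142 and 113 CPM, 2.12-fold higher (log2 1.09, SE 0.20, adjusted p = 0.000727). The groups did not overlap in either line. COL6A3 in PC3 was at 71.4, 78.2 and 62.7 CPM and then 212, 186 and 205 CPM, 2.74-fold higher (log2 1.46, SE 0.10, adjusted p = 7.75e-05), the smallest adjusted p of any collagen gene in that line. Per kilobase, COL6A1 exceeded COL6A3 by 27.1 ± 0.939 times in normoxic and 16.6 ± 1.67 times in hypoxic PC3 (SD, n = 3). COL6A1 to COL6A2 was near parity in PC3 (0.931 ± 0.0234 and 0.990 ± 0.0607), went from 1.25 ± 0.0300 to 0.926 ± 0.0745 in HCT-116, and stayed lopsided in T47D (11.6 ± 3.80 and 15.2 ± 0.919). These ratios are descriptions with no test.

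COL6A1, COL6A2 and COL6A3 kept their calls in PC3 after the GC and length correction (log2 0.41, 0.31 and 1.02, adjusted p = 0.00497, 0.0222 and 6.29e-05) and without any 1 library. In HCT-116 the correction turned COL6A1 to log2 -0.06 (adjusted p = 0.783) and left COL6A2 at 0.37 (adjusted p = 0.0984), and without hypoxia replicate 2 or 3 COL6A1 was not called (adjusted p = 0.0523 and 0.0524). In A549 COL6A1 was not called after the correction (adjusted p = 0.226) nor without hypoxia replicate 2 or normoxia replicate 1 or 2 (adjusted p from 0.0527 to 0.0867), and COL6A2 was not called (1.38-fold, adjusted p = 0.149).

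**Figure D5:**
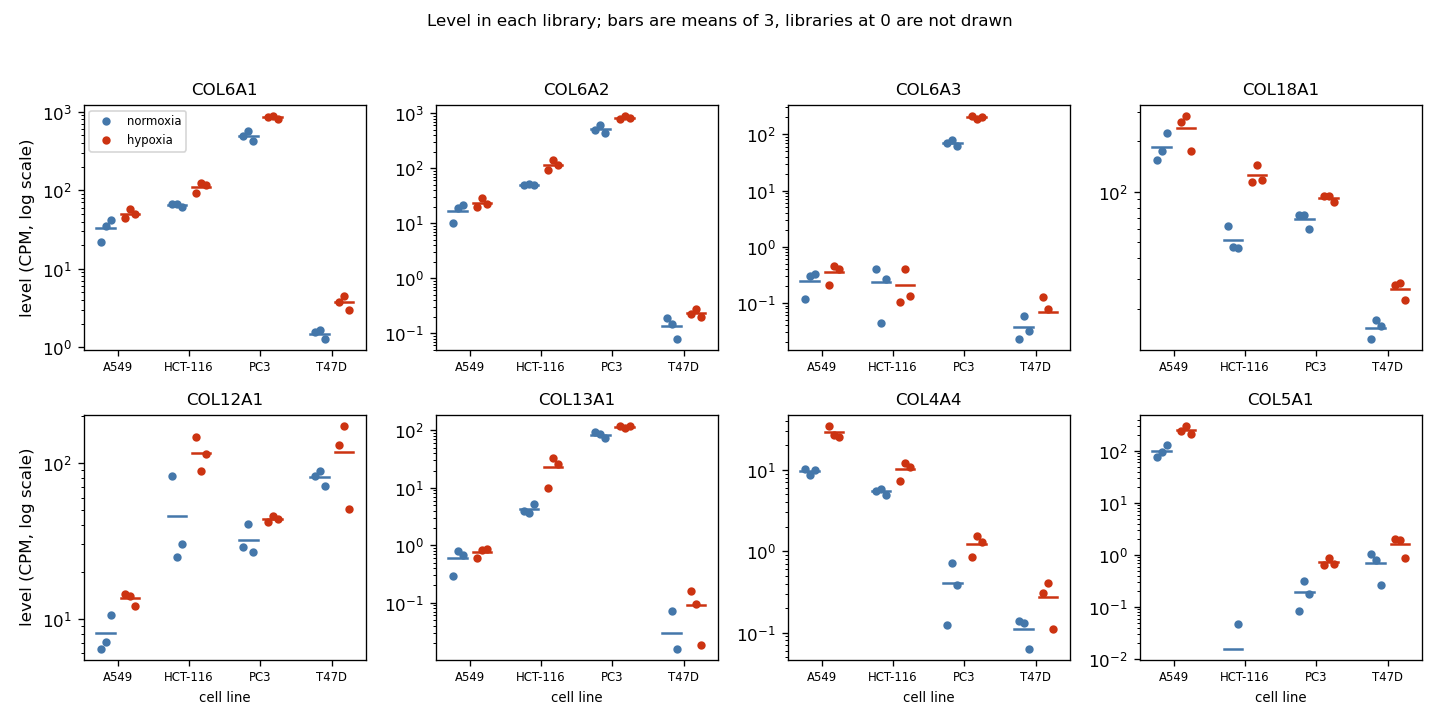
Level of 8 collagen genes in each library in CPM on a log axis, in 1 panel a gene, with the 4 lines side by side, normoxia in blue and hypoxia in red, and a bar at the mean of 3 libraries. COL6A3 stands between 62.7 and 212 CPM in PC3 and under 0.5 CPM in the other lines, and COL13A1 in HCT-116 moves from at most 5.15 to at least 9.94 CPM.

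Of the 6 type IV chains 5 rose in A549. COL4A4 (ENSG00000081052, GRCh37 chromosome 2, 227867430 to 228029169, minus strand, 48 exons), a chain of the specialised basement membranes of kidney, lung and inner ear, was at 10.1, 8.70 and 9.84 CPM in normoxia and 34.8, 27.1 and 25.4 CPM in hypoxia. It was 3.04-fold higher (log2 1.60, SE 0.15, adjusted p = 1.66e-05), and it kept the call after the GC and length correction (log2 1.22, adjusted p = 6.42e-05) and without any 1 library. Its head-to-head partner COL4A3 was at 3.05, 2.88 and 1.75 CPM and then 7.71, 4.70 and 2.67 CPM, 1.96-fold higher (adjusted p = 0.0451), with groups that overlapped. COL4A3 was not called after the correction (adjusted p = 0.184) nor without hypoxia replicate 1 or 2 or normoxia replicate 2 or 3 (adjusted p from 0.0648 to 0.23). Per kilobase, COL4A3 stood at 0.260 ± 0.0782 of COL4A4 in normoxia and 0.161 ± 0.0563 in hypoxia.

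COL4A4 was also called in HCT-116 and PC3. In HCT-116 it was at 5.48, 5.83 and 4.96 CPM and then 7.30, 12.1 and 10.9 CPM, 1.70-fold higher (adjusted p = 0.0204). The call was lost after the correction (log2 0.10, adjusted p = 0.782) and without hypoxia replicate 2 or 3 (adjusted p from 0.0566 to 0.0720). PC3 held little of it, with 3 to 39 counts a library in normoxia and 36 to 75 in hypoxia, or 0.124, 0.718 and 0.388 CPM and then 0.844, 1.53 and 1.29 CPM (2.65-fold, adjusted p = 0.0474), and it lost the call without any 1 library other than normoxia replicate 2 (adjusted p from 0.0614 to 0.151). Without that library it was at log2 2.09 in place of 1.41 (adjusted p = 0.0116), and with the correction at 1.08 (adjusted p = 0.108). In PC3 it passed the filter through the hypoxic libraries alone, so its difference there is partly built in. COL4A3 in HCT-116 was at 1.12-fold (adjusted p = 0.778).

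COL4A1 and COL4A2, which share a start region, moved by like amounts in A549. COL4A1 was at 58.3, 66.8 and 97.2 CPM and then 98.6, 131 and 97.1 CPM, 1.46-fold higher (adjusted p = 0.0329). COL4A2 was at 127, 134 and 234 CPM and then 274, 311 and 219 CPM, 1.62-fold higher (adjusted p = 0.0229). In both genes hypoxia replicate 3 lay below normoxia replicate 3. Neither held without hypoxia replicate 2 or normoxia replicate 1 or 2 (adjusted p from 0.0754 to 0.133) or after the correction (adjusted p = 0.301 and 0.224). In PC3 the pair was at 0.994-fold and 1.08-fold (adjusted p = 0.979 and 0.635), and the interaction test called neither (adjusted p = 0.314 and 0.735). Per kilobase COL4A1 was at 0.601 ± 0.0533 and 0.536 ± 0.0562 of COL4A2 in A549 and at 0.431 ± 0.0272 and 0.392 ± 0.0353 in PC3.

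COL4A5 and COL4A6 form the third pair. COL4A5 in A549 was 1.31-fold higher in hypoxia (29.2, 31.8 and 25.5 CPM and then 44.6, 36.8 and 32.6 CPM, adjusted p = 0.0416), while COL4A6 there was at 1.03-fold (adjusted p = 0.878). In PC3, COL4A6 was called (2.73, 4.31 and 2.001 CPM and then 5.20, 4.83 and 5.49 CPM, 1.64-fold, adjusted p = 0.0464) and COL4A5 was at 1.05-fold (adjusted p = 0.677). Neither call survived the correction (adjusted p = 0.630 for COL4A5 and 0.183 for COL4A6). COL4A5 lost its call without 4 libraries of A549 (each of hypoxia replicates 1 and 2 and normoxia replicates 1 and 3, adjusted p from 0.0736 to 0.147). COL4A6 lost its call without any 1 library of PC3 other than normoxia replicate 2 (adjusted p from 0.0922 to 0.122). Both chains were tested in T47D, where COL4A5 was at 24.2, 28.5 and 24.1 CPM and then 43.9, 50.7 and 24.7 CPM (1.46-fold, adjusted p = 0.151). Per kilobase COL4A5 was at 0.546 ± 0.0953 of COL4A6 in normoxic A549 and at 7.16 ± 0.465, 4.02 ± 1.38 and 7.003 ± 2.03 in HCT-116, PC3 and T47D.

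Among fibrillar chains 4 rose and 1 fell in A549. COL5A1 (ENSG00000130635, GRCh37 chromosome 9, 137533649 to 137736689, plus strand, 66 exons), the partner of COL5A2 in type V collagen, was at 77.7, 97.0 and 129 CPM in normoxia and 244, 304 and 215 CPM in hypoxia. It was 2.5-fold higher (log2 1.32, SE 0.18, adjusted p = 0.000325). COL5A2 was at 288, 262 and 356 CPM and then 569, 508 and 359 CPM, 1.58-fold higher (log2 0.66, SE 0.17, adjusted p = 0.0104), and hypoxia replicate 3 was just above the highest normoxic library. Per kilobase COL5A1 went from 0.219 ± 0.0365 to 0.355 ± 0.0643 of COL5A2. Both kept their calls after the correction (log2 0.81 and 0.40, adjusted p = 0.000634 and 0.0308) and without any 1 library. COL1A1 was at 9.99, 13.8 and 16.2 CPM and then 19.4, 26.7 and 24 CPM, 1.74-fold higher (adjusted p = 0.00483), and was not called after the correction (adjusted p = 0.0941). COL11A1, a chain that joins type V chains in fibrils, was 1.96-fold higher (3.23, 1.59 and 3.25 CPM and then 7.47, 4.86 and 3.48 CPM, adjusted p = 0.0339), and was not called after the correction (adjusted p = 0.0865), without hypoxia replicate 1 (0.15) or without normoxia replicate 2 (0.117).

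COL3A1, the chain of type III collagen, was the only collagen gene called lower in A549. It was at 0.649, 0.376 and 0.542 CPM in normoxia and 0.0687, 0.140 and 0.141 CPM in hypoxia, 4.48-fold lower (log2 -2.16, SE 0.54, adjusted p = 0.0087). These are 21 to 33 counts a library against 4 to 7. The call held after the correction (log2 -2.40, adjusted p = 0.00628), but 1 fit of all 24 libraries called no collagen gene lower in A549. COL3A1 passed the filter there through the normoxic libraries alone, so its difference is partly built in. In PC3 2 of the fibrillar chains were called. COL5A1 was at 0.0828, 0.313 and 0.179 CPM and then 0.633, 0.896 and 0.673 CPM (3.35-fold, adjusted p = 0.0206), or 2 to 17 counts and then 27 to 44. In PC3 it passed the filter through the hypoxic libraries alone, so this difference too is partly built in. COL1A1 was at 14.1, 12 and 15.3 CPM and then 20.03, 17.9 and 21.8 CPM (1.39-fold, adjusted p = 0.027). Neither held after the correction (log2 1.26 for COL5A1, adjusted p = 0.0683, and 0.03 for COL1A1, adjusted p = 0.905). COL5A1 was not called without hypoxia replicate 2 or normoxia replicate 1 (adjusted p from 0.0597 to 0.0826), and COL1A1 was not called without hypoxia replicate 1 or 3 or normoxia replicate 1 or 2 (adjusted p from 0.053 to 0.0887). COL1A1 was at 0.806-fold in HCT-116 (adjusted p = 0.329) and 1.04-fold in T47D (adjusted p = 0.898). With the correction it was called lower in HCT-116 (log2 -1.19, adjusted p = 0.00294). Its hypoxia effect then differed between lines (interaction adjusted p = 0.0135, and 0.000705 with the replicate block as well). COL27A1 was at 0.652-fold in A549 (adjusted p = 0.0537) and COL2A1, the cartilage fibril chain, at 1.27-fold in PC3 (adjusted p = 0.382).

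Of the fibril-associated chains, COL12A1 and COL9A3 were called in more than 1 line. COL12A1 (ENSG00000111799, GRCh37 chromosome 6, 75794042 to 75915983, minus strand, 66 exons) was at 6.41, 7.09 and 10.6 CPM in normoxic and 14.4, 14.0 and 12.1 CPM in hypoxic A549, 1.67-fold higher (log2 0.74, SE 0.19, adjusted p = 0.0095). In HCT-116 it was at 82.4, 25.0 and 30.1 CPM and then 148, 88.8 and 114 CPM, 2.33-fold higher (log2 1.22, SE 0.38, adjusted p = 0.017). Normoxia replicate 1 stood well above the other 2 there, at a level close to the lowest hypoxic library. In PC3 it was at 28.7, 40.7 and 26.8 CPM and then 41.9, 45.8 and 43.8 CPM (1.32-fold, adjusted p = 0.0463), and in T47D at 82.6, 89.1 and 71.7 CPM and then 130, 174 and 50.9 CPM (1.37-fold, adjusted p = 0.381). Hypoxia replicate 3 of T47D lay below all 3 normoxic libraries.

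The calls of COL12A1 held after the correction in A549 (log2 0.42, adjusted p = 0.0429) and HCT-116 (0.80, adjusted p = 0.0424) and not in PC3 (0.10, adjusted p = 0.469). Without normoxia replicate 1 the value in HCT-116 was log2 2.04 in place of 1.22 (adjusted p = 0.000575). The calls were lost in HCT-116 without normoxia replicate 2 or 3 (adjusted p from 0.0531 to 0.0543) or with DESeq2 (adjusted p = 0.0637), and without any 1 library other than normoxia replicate 2 in PC3 (adjusted p from 0.0889 to 0.154). COL9A3 was at 15.6, 18.9 and 19.2 CPM and then 27.2, 38.7 and 40.2 CPM in HCT-116, 1.82-fold higher (log2 0.86, SE 0.20, adjusted p = 0.0036). In PC3 it was at 2.4, 2.5 and 2.03 CPM and then 3.42, 3.81 and 3.44 CPM (1.48-fold, adjusted p = 0.0397), a call that no fit with 1 library left out kept (adjusted p from 0.0501 to 0.144). Neither held after the correction (adjusted p = 0.269 and 0.292). COL9A3 shares 155 exon bases with TCFL5 on the other strand, and the strand setting of the counting is not given in the sources used here. Its partner COL9A2 was at 1.5-fold in HCT-116 (adjusted p = 0.108), 1.02-fold in PC3 (adjusted p = 0.95) and 1.04-fold in T47D (adjusted p = 0.899).

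The multiplexin COL18A1 (ENSG00000182871, GRCh37 chromosome 21, 46825080 to 46933634, plus strand, 42 exons) is a basement membrane collagen whose end fragment is endostatin. In HCT-116 it was at 62.1, 46.9 and 46.1 CPM and then 115, 145 and 117 CPM, 2.22-fold higher (log2 1.15, SE 0.20, adjusted p = 0.000611). In PC3 it was at 72.4, 72.6 and 59.9 CPM and then 93.9, 94.6 and 87.4 CPM, 1.30-fold higher (log2 0.38, SE 0.09, adjusted p = 0.0154). The groups did not overlap in either line. In T47D it was at 13.2, 17.1 and 15.7 CPM and then 27.5, 28.3 and 22.6 CPM, 1.61-fold higher (log2 0.69, SE 0.20, adjusted p = 0.0376). In A549, where it was most abundant, it was at 156, 176 and 226 CPM and then 262, 284 and 175 CPM, 1.29-fold (adjusted p = 0.137), and hypoxia replicate 3 lay within the normoxic range. The correction ended the call in HCT-116 (log2 0.16, adjusted p = 0.468) and T47D (0.22, adjusted p = 0.307) and turned it in PC3 (-0.10, adjusted p = 0.352), where it was also lost without hypoxia replicate 1 or 2 (adjusted p from 0.0566 to 0.0675). COL18A1 shares 1563 exon bases with SLC19A1 on the other strand. COL15A1, the other multiplexin, was at 0.0787, 0.233 and 0.343 CPM and then 0.498, 0.860 and 0.724 CPM in A549, 3.11-fold higher (adjusted p = 0.031) on 4 to 19 and 29 to 43 counts, and was not called after the correction (log2 1.40 in place of 1.64, adjusted p = 0.0593) nor without hypoxia replicate 2 or 3 or normoxia replicate 1 or 2 (adjusted p from 0.0588 to 0.117). It passed the filter in A549 through the hypoxic libraries alone, so its difference is partly built in.

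Of the collagens that span the plasma membrane, COL13A1 (ENSG00000197467, GRCh37 chromosome 10, 71561636 to 71724031, plus strand, 41 exons) had the largest fold of any collagen gene called. In HCT-116 it was at 3.88, 3.57 and 5.15 CPM in normoxia and 9.94, 33.5 and 26.0 CPM in hypoxia, 5.05-fold higher (log2 2.34, SE 0.36, adjusted p = 0.000246). Hypoxia replicate 1 was lowest of the 3 and still above every normoxic library. In PC3 it was at 93.9, 87.3 and 72.5 CPM and then 119, 110 and 120 CPM, 1.33-fold higher (log2 0.41, SE 0.10, adjusted p = 0.0162). In A549 it was at 0.295, 0.806 and 0.686 CPM and then 0.601, 0.820 and 0.864 CPM (1.27-fold, adjusted p = 0.572). The call in HCT-116 held after the correction (log2 1.92, adjusted p = 0.000824) and without any 1 library. In PC3 it did not hold after the correction (adjusted p = 0.116) or without hypoxia replicate 1 or 3 (adjusted p from 0.0582 to 0.0591). COL17A1, which links epithelial cells to the basement membrane in hemidesmosomes, was at 7.17, 6.43 and 4.36 CPM and then 11.2, 9.32 and 9.23 CPM in PC3, 1.61-fold higher (adjusted p = 0.0196, 0.103 after the correction and 0.0722 without hypoxia replicate 1). It was at 1.84-fold in HCT-116 (adjusted p = 0.0704) and 0.763-fold in A549 (adjusted p = 0.348).

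COL8A1, a short-chain collagen of vessel walls and the eye, passed the filter in PC3 alone. It was at 4.56, 4.53 and 3.64 CPM in normoxia and 11.2, 9.14 and 10.2 CPM in hypoxia, 2.32-fold higher (log2 1.21, SE 0.15, adjusted p = 0.00124), and it kept the call after the correction (log2 1.10, adjusted p = 0.00129) and without any 1 library. COL8A2, which joins it in a helix, was tested in A549 alone, at 0.984-fold (adjusted p = 0.983).

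COL7A1 (ENSG00000114270, GRCh37 chromosome 3, 48601506 to 48632762, minus strand, 119 exons) was lower in HCT-116. It was at 5.18, 6.55 and 3.61 CPM in normoxia and 1.48, 2.53 and 2.87 CPM in hypoxia, 2.47-fold lower (log2 -1.30, SE 0.34, adjusted p = 0.00674). The groups did not overlap, and the call held after the correction (log2 -2.48, adjusted p = 0.000219) and without any 1 library, but not in 1 fit of all 24 libraries. In T47D it was at 8.87, 16.2 and 2.18 CPM and then 4.79, 6.63 and 1.94 CPM (log2 -1.14, adjusted p = 0.193). In A549 and PC3 it was at log2 -0.16 and -0.30 (adjusted p = 0.65 and 0.536), and a difference between lines was not called (interaction adjusted p = 0.499), except with the replicate block and the correction together (0.0345).

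In T47D the replicate numbers were taken to pair the libraries, from correlations in these data and not from the labels. A blocked fit, with a term for the replicate number, called more members there. The T47D calls given above came from the fit without that term. With the block 4 were higher and 1 lower: COL6A1 (log2 1.23, adjusted p = 0.0123), COL18A1 (0.69, 0.0243), COL4A6 (1.09, 0.0106) and COL5A1 (1.17, 0.0491) rose and COL7A1 fell (-0.90, 0.0354). The share of all genes called by the blocked fit is not given here, so the gain does not show a trait of collagen genes. COL4A6 was at 2.95, 4.18 and 2.04 CPM and then 7.63, 10.5 and 3.57 CPM, and COL5A1 at 1.07, 0.799 and 0.271 CPM and then 2.02, 1.93 and 0.860 CPM. Both were higher in hypoxia within each of the 3 pairs. With the block and the correction together, COL6A1 (adjusted p = 0.0295), COL4A6 (0.0194) and COL7A1 (0.0102) were called. Without the block, neither COL6A1 nor COL18A1 was called when hypoxia replicate 1 or 2 or normoxia replicate 1 or 2 was left out (adjusted p from 0.0726 to 0.188, 0 members higher), and 5 members were called higher without hypoxia replicate 3.

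The size of the hypoxia effect differed between lines for 3 of the 32 members tested (edgeR interaction F test on all 24 libraries, adjusted p under 0.05), where 18.3% of all genes did. They were COL13A1 (adjusted p = 0.0092), with log2 2.34 in HCT-116 beside 0.41 in PC3 and 0.34 in A549, COL18A1 (adjusted p = 0.035), with 1.15 in HCT-116 beside 0.37 to 0.69 elsewhere, and COL8A1 (adjusted p = 0.0376). COL8A1 had at most 4 counts in any library outside PC3 and was tested there alone, so that its value sets PC3 beside lines with hardly any of its RNA and shows no difference in response among lines that express it. COL3A1 (adjusted p = 0.0629) and COL17A1 (adjusted p = 0.106) came next and were not called. COL13A1 kept its call without each of the 24 libraries in turn, COL18A1 in 7 and COL8A1 in 9 of those 24 fits. COL18A1 was not called with RLE size factors, total counts, no filter or a mean count of at least 50 (adjusted p from 0.0561 to 0.0639), with the replicate block (0.0605), or with the GC and length correction alone (0.191) or with the block (0.137). With the block 4 members were called, COL13A1 (adjusted p = 0.0111), COL1A1 (0.0188), COL17A1 (0.0353) and COL4A6 (0.0356), and COL8A1 was not (0.051). The share of all genes called in that blocked interaction test is not given here. COL13A1 was called in every setting tried at the 0.05 threshold.

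The tested members with no call in any line were COL16A1, COL1A2, COL21A1, COL22A1, COL26A1, COL27A1, COL2A1, COL5A3, COL8A2 and COL9A2. For COL16A1, COL27A1 and COL5A3 this depended on the setting. COL27A1 was called lower in A549 with DESeq2 (log2 -0.61, adjusted p = 0.0225), with RLE size factors, with total counts, with no filter, with the replicate block and with the GC and length correction (log2 -1.17, adjusted p = 0.00164). COL16A1 was called lower there with total counts (log2 -0.76, adjusted p = 0.0484) and with the correction (log2 -1.05, adjusted p = 0.00578). In HCT-116 COL16A1 and COL27A1 were called lower with the correction (log2 -1.24, adjusted p = 0.0297, and log2 -1.48, adjusted p = 0.000586). COL5A3 did not pass the filter in the 6 libraries of PC3. It was called there with DESeq2, with no filter, and without hypoxia replicate 2 or normoxia replicate 3. Without a change of setting, the log2 fold changes of the 10 ran from -0.64 (COL16A1 in A549) to 1.36 (COL26A1 in T47D, on 4 to 11 and 18 to 23 counts). The 12 never tested were COL10A1, COL11A2, COL14A1, COL19A1, COL20A1, COL23A1, COL24A1, COL25A1, COL28A1, COL6A5, COL6A6 and COL9A1, with at most 18 counts in any library. COL19A1 had 0 counts in all 24 libraries, which allows up to 3 counts a library, or 0.0436 to 0.132 CPM by depth. Of the 44 genes, 7 had no count in any library of A549, 8 in HCT-116, 7 in PC3 and 2 in T47D.

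The machinery that makes and handles collagen was read from lists of its genes, and these lists too had been chosen with earlier results known. For the 18 listed genes of hydroxylation and folding in the endoplasmic reticulum, 10 were higher and 0 lower of 17 tested in A549, 8 and 1 of 17 in HCT-116, 7 and 0 of 18 in PC3, and 7 and 1 of 15 in T47D. The shares of all genes called, given above, were 17.6% higher and 17.8% lower in A549, 23.3% and 27% in HCT-116, 16.6% and 15.7% in PC3 and 6.55% and 6.69% in T47D, and they are the background for each list. With the GC and length correction, chosen for these lists after seeing the data, the counts were 7 and 0, 7 and 1, 5 and 0, and 5 and 1, where 15%, 19.1%, 11.7% and 6.87% of all genes were higher. P4HA1 and P4HA2, catalytic subunits of prolyl 4-hydroxylase, and PLOD1 and PLOD2, lysyl hydroxylases, rose in all 4 lines. P4HA1 was 3.51-fold higher in A549 (adjusted p = 1.07e-06), 7.09-fold in HCT-116, 2.01-fold in PC3 and 7.24-fold in T47D, and PLOD2 2.999-fold, 9.19-fold, 1.81-fold and 2.87-fold in the same order. Both effects differed between lines (interaction adjusted p = 0.000537 and 4.97e-05). The T47D values are from the fit without the block.

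The other lists held 6 to 13 tested genes in a line, so that 1 gene is a large share of a list. Of the secretion genes, 1 of 8 tested rose and 2 fell in A549, 2 of 8 rose and 2 fell in HCT-116, 1 of 7 rose in PC3, and 1 of 7 fell in T47D. CTAGE5, a receptor for procollagen cargo, fell in A549, HCT-116 and T47D (log2 -0.69, -1.29 and -0.92), and SEC24D, a coat protein of the vesicles that leave the endoplasmic reticulum, rose in PC3 (1.55-fold, adjusted p = 0.0113). Among genes of extracellular processing and cross-linking, 4 of 12 tested rose in A549, 6 of 13 in HCT-116 with 2 that fell, 5 of 13 in PC3 and 2 of 12 in T47D. LOX, a lysyl oxidase that cross-links collagen, was 24.2-fold higher in A549, 19.2-fold in T47D and 1.90-fold in PC3, and fell in HCT-116 (log2 -1.64, adjusted p = 0.0441), effects that differed between lines (interaction adjusted p = 1.07e-07). LOXL2, of the same family, rose 3.95-fold, 10.6-fold and 2.69-fold in A549, HCT-116 and PC3, and BGN, a small proteoglycan that binds collagen, rose 3.90-fold in T47D (adjusted p = 0.0228).

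With the correction the processing list had 5, 3, 3 and 2 higher in A549, HCT-116, PC3 and T47D, and 2 lower in HCT-116. Of all genes in HCT-116, 19.1% were then higher and 20.2% lower, and the list of 13 tested lay near those shares.

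Of genes of breakdown and uptake, 5 of 9 tested rose in A549, 5 of 8 in HCT-116 with 1 that fell, 5 of 9 in PC3 and 2 of 8 in T47D, and with the correction 5, 3, 4 and 3 were higher. The metalloproteinase MMP9 rose in A549 (3.25-fold, adjusted p = 0.0149) and PC3 (2.02-fold, adjusted p = 0.00854), and MMP13, a collagenase, rose in PC3 (6.22-fold, adjusted p = 0.0231). TIMP3, an inhibitor of metalloproteinases, rose in A549 (1.81-fold, adjusted p = 0.0114) and T47D (3.95-fold, adjusted p = 0.0103). In HCT-116 MRC2, a receptor that takes up collagen, rose 2.34-fold (adjusted p = 0.00316) and the protease CTSK fell (log2 -1.48, adjusted p = 0.0445). Of the collagen receptors, 1 of 6, 2 of 7, 3 of 6 and 1 of 6 tested rose in A549, HCT-116, PC3 and T47D, and 1 fell in HCT-116. In A549 and HCT-116 these receptor counts lie near the shares of all genes called higher, as do the secretion counts in A549, HCT-116 and PC3. The integrin chain ITGA2 rose in A549, HCT-116 and PC3 (1.45-fold, 2.47-fold and 1.49-fold), the integrin chain ITGA10 fell in HCT-116 (log2 -1.85, adjusted p = 0.0145), and the receptor kinase DDR1 rose 2.23-fold in T47D (adjusted p = 0.0182).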

How the data were processed

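Poly-A RNA libraries were made with a directional kit. Per the submitters' processing notes, reads were trimmed with Trim Galore 0.3.3, aligned to GRCh37/hg19 with HISAT2 2.05, marked with Picard 2.0.1 and counted with HTSeq 0.5.4p3, and DESeq2 was also used. The study's methods add that reads were counted over UCSC genes in intersection-strict mode. The strand setting is not given in the sources used here, so antisense overlaps cannot be told apart. The authors deposited whole-number counts per gene symbol for 24 libraries, with 22698584 to 62850747 counts each, of which 3 counts are 0.0436 to 0.132 CPM. Intervals from such totals cover counting error only.

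Each line was fitted on its own (6 libraries) with edgeR 4.0.16 in R 4.3.3: filterByExpr, TMM scaling, quasi-likelihood test, Benjamini-Hochberg adjustment over all genes tested, a call at adjusted p under 0.05 and fold over 1.2. A fit of all 24 libraries gave the interaction of hypoxia with line, and a fit of the 12 normoxic libraries gave differences between lines. DESeq2 1.42.0 was an alternative. Both tools were tested on simulated data. The GC and length correction fitted a spline per library in R and entered it as an offset in the edgeR fit. It used GENCODE models lifted to GRCh37 that matched 93.4% of 23106 symbols and all 44 collagen genes. Libraries of a group correlated at 0.981 to 0.994 and none were identical.

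The labels give replicate numbers but no shared culture. The departures from the group mean of normoxic and hypoxic libraries with the same number correlated at 0.154, 0.325 and 0.302 in T47D, over 0.1 in every pair, so the numbers were taken to pair the libraries there. In the other lines at least 1 pair was under 0.1.

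The collagen genes, the pathway lists and the tests were chosen with earlier results of these data known. Values in every library are given for the 3 members with the highest normoxic CPM in a line, members called in the same direction in 2 or more lines, the called member with the largest fold per direction and line, the 5 smallest interaction p-values and chain pairs. Of each pathway list, the 2 called genes with the largest change in a line were the ones to name. PLOD1, uncalled members and single-line calls named with values were chosen after their values were seen. Protein sequences were not used here.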

Additional observations from a re-analysis of the deposited data

Results flagged for a closer look

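The interaction test over 24 libraries called a difference in the hypoxia effect between the 4 lines for 3 collagen genes, of which COL13A1 and COL18A1 were tested in more than 1 line. COL13A1 (adjusted p = 0.0092) had log2 fold changes of 2.34 in HCT-116, 0.41 in PC3 and 0.34 in A549, and kept its call without each library in turn (adjusted p from 0.000254 to 0.0372).

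COL18A1 (adjusted p = 0.035) had 1.15 in HCT-116, 0.69 in T47D, 0.38 in PC3 and 0.37 in A549. It kept the call in 7 of 24 fits with 1 library left out (A549 hypoxia 1, 2 or 3, A549 normoxia 1, HCT-116 hypoxia 1, HCT-116 normoxia 1 or T47D hypoxia 3), lost it in the other 17, and ranged from 0.0161 to 0.107. It was also lost with the replicate block (0.0605), a minimum mean count of 50 (0.0561), RLE size factors (0.0568), unfiltered counts (0.0621), total counts (0.0639), the GC and length correction (0.191) and that correction with the block (0.137).

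COL8A1 (adjusted p = 0.0376) rested on PC3 (log2 1.21), the 1 line where it passed the count filter. No library of the other lines had over 4 counts, so that the value shows no difference among lines that express the gene. It kept the call in 9 of 24 such fits (without A549 normoxia 1, HCT-116 hypoxia 1 or 2, HCT-116 normoxia 1 or 3, PC3 normoxia 3, T47D hypoxia 3 or T47D normoxia 1 or 3), lost it in the other 15, and ranged from 0.0233 to 0.104. With the replicate block its adjusted p was 0.051.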

How the results depend on the processing

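Calls higher and lower without any change of setting were 12 and 1 in A549, 7 and 1 in HCT-116, 13 and 0 in PC3, and 2 and 0 in T47D, and the interaction test gave 3. The GC and length correction gave 4 and 5 in A549, 2 and 4 in HCT-116, 4 and 0 in PC3, 0 and 0 in T47D, and 5 in the interaction. This correction called 15%, 19.1%, 11.7% and 6.87% of all genes higher in these lines, and 16.4%, 20.2%, 12.5% and 6.09% lower. Together with the replicate block it gave 9 and 5 in A549, 2 and 4 in HCT-116, 5 and 1 in PC3, 2 and 1 in T47D, and 10 in the interaction. Shares of all genes for these joint counts, and for the corrected interaction, are not given here. Those counts therefore do not show a trait of collagen genes. The correction turned COL6A1 in HCT-116 to log2 -0.064 (-0.065 with the block) and COL18A1 in PC3 to -0.101 (-0.101 with the block).

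At an adjusted p under 0.01, 4 were higher in A549, 4 in HCT-116, 4 in PC3 and 0 in T47D, and the interaction gave 1. A fold over 1.5 left 8 higher in PC3. In 1 fit of all 24 libraries, 4 were higher and 0 lower in A549, 0 lower in HCT-116, 6 higher in PC3 and 5 higher in T47D. Scaling to total counts, which moved the median of all genes to log2 -0.13 in A549 and -0.12 in T47D, gave 7 higher and 3 lower in A549 and 1 higher in T47D. In A549, 2 were lower with DESeq2, 2 with RLE size factors, 2 with no filter and 0 with a mean count of at least 50, and in HCT-116 2 were lower with no filter. The cause was not tested, except that a stricter threshold or filter leaves fewer genes.

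The replicate block gave 4 higher and 1 lower in T47D, where the numbers were taken to pair the libraries and 6 of 6 libraries correlated best with their own number. In the other lines at least 1 pair correlation was under 0.1, and the numbers were not taken to pair the libraries. The pair correlations were 0.207, 0.0887 and 0.0826 in A549, 0.288, 0.224 and 0.0707 in HCT-116, and 0.0813, 0.0815 and 0.0785 in PC3. In these lines 4, 5 and 6 of 6 libraries were best with their own number. By that count PC3 equalled T47D, so pairing in PC3 remains possible. There the block gave 13 and 2 in A549, 7 and 1 in HCT-116 and 13 and 0 in PC3. The interaction gave 4 with the block, and COL13A1 was the 1 gene among them that was also called without it. Shares of all genes called with the block are not given here.

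Leaving out 1 library gave 6 to 12 higher and 1 to 3 lower in A549, 5 to 7 and 1 to 2 in HCT-116, 5 to 11 and 0 in PC3, 0 to 5 and 0 to 1 in T47D, 1 to 5 in the interaction and 30 to 32 for normoxic levels. The higher count was 6 without A549 hypoxia 2 or normoxia 2 and 7 without normoxia 1, and in PC3 5 without hypoxia 1, 8 without hypoxia 2, and 7 without hypoxia 3 or normoxia 1. Depth limits members with few counts, such as COL3A1 and COL15A1 in A549 and COL4A4 and COL5A1 in PC3.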
